A study of Mus musculus with 21 samples.

Results

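The comparison set tumours of mice given lenvatinib together with an antibody against PD-1 (combination, 5 mice) against tumours of mice given the antibody alone (anti-PD1, 5 mice), which asks what lenvatinib adds to the antibody. These 10 mice are all those labelled with the 2 arms, out of 21 mice in the study. All were female C57BL/6J mice, 5 to 6 weeks old when Hepa1-6 cells, a mouse hepatoma line, were injected under the skin. Treatment was assigned at random when a tumour reached 200 mm3. Mice of both arms received the anti-PD1 antibody (clone J43) into the abdomen at 10 mg/kg, every 3 days for 5 doses, and mice of the combination arm also received lenvatinib by mouth at 10 mg/kg every day. Tissue for RNA (30 mg) was collected on day 13, when 2 h had passed since the final lenvatinib gavage and 1 day since the final antibody injection. The labels do not say whether mice given the antibody alone also received the oral vehicle. The remaining arms, used only where stated, were lenvatinib alone (5 mice) and placebo, which was vehicle with a polyclonal IgG (6 mice). The model is limited to 1 cell line grown outside the liver.

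PD-1 is an inhibitory receptor that T cells display after activation, and an antibody that blocks it keeps its ligands, PD-L1 and PD-L2, from restraining those cells. Lenvatinib inhibits the tyrosine kinases of the VEGF and FGF receptors, the PDGF receptor alpha, KIT and RET, and is used in liver cancer. VEGF drives the growth of tumour vessels and also acts on dendritic cells, macrophages and T cells, and hepatoma cells can depend on FGF receptor signalling.

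Clariom S mouse arrays, 1 per tumour, measured 22206 probe sets besides control probes, and 19572 of them carry a gene name. Values are log2 signals, so a difference of 1 is a 2-fold difference, and levels are not compared between genes because each probe set binds with its own strength. In bulk tissue, fewer cells of a type and less RNA per cell cannot be told apart. Of the hepatoma markers, Alb, albumin, ran from 8.41 to 12.55 and Trf, transferrin, from 10.21 to 11.60 over the 10 tumours. Afp, alpha-fetoprotein, ran from 3.75 to 11.94 and stood above the median of the negative-control probes (4.08) in 9 of 10. Ttr, Apob, Apoa1, Apoa2 and Serpina1a stood above it in 10 of 10, with medians of 6.05, 6.19, 5.48, 5.37 and 4.73. Serpina1a ran from 4.28 to 5.59, close to that control median. On 6 of the 21 arrays the hybridization control probes were bright (at least 11.2, against at most 10.7 on the others) and the spread of values was narrower, with an interquartile range of 2.41 to 2.82 against 3.00 to 3.25. Anti-PD1 mouse 1 and combination mouse 1 were among these 6 arrays. Skeletal muscle genes were high in anti-PD1 mouse 2 and combination mouse 2, and B cell genes in combination mice 3 and 4.

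No probe set passed an adjusted p under 0.05 in either direction (0% higher and 0% lower of 22206, limma with Benjamini-Hochberg adjustment, smallest adjusted p 0.124), so the differences described here are values that did not pass this test. At an unadjusted p under 0.05 there were 1078 probe sets higher in the combination (4.85%) and 619 lower (2.79%). In 117 probe sets (0.527%) all 5 combination tumours lay above all 5 anti-PD1 tumours, and in 89 (0.401%) all lay below. The typical probe set did not stand apart, with a median difference of -0.01 and a median standard error of 0.25, and 48.1% of differences were above 0 and 51.9% below.

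The count rested on single mice and on how arrays were weighted. Without combination mouse 1, 308 probe sets were higher (1.39% of 22206) and 30 lower (0.135%) at an adjusted p under 0.05 by limma. Without anti-PD1 mouse 4, 85 were higher (0.383%) and 2 lower (0.00901%), and of the 75 named genes past the threshold in that fit, 67 (89.3%) were among the 307 found without combination mouse 1. The mean level of the T cell, cytotoxic and macrophage lists was lowest of its arm in combination mouse 1 and highest of its arm in anti-PD1 mouse 4. Leaving out any 1 of the other 8 mice of the 2 arms gave 0 calls in both directions, with smallest adjusted p-values of 0.138 to 0.426. Down-weighting noisy arrays gave 374 higher (1.68%) and 130 lower (0.585%). Leaving out the 6 bright arrays gave 143 and 90 of 22206, and the control signal as a covariate gave 29 and 2 of 22206. The weights of the bright arrays in these 2 arms were 0.18 and 0.37, against 0.54 to 2.01 for the other 8 arrays of these arms. The part of array brightness in the low values of combination mouse 1 was not tested.

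**Figure D1:**
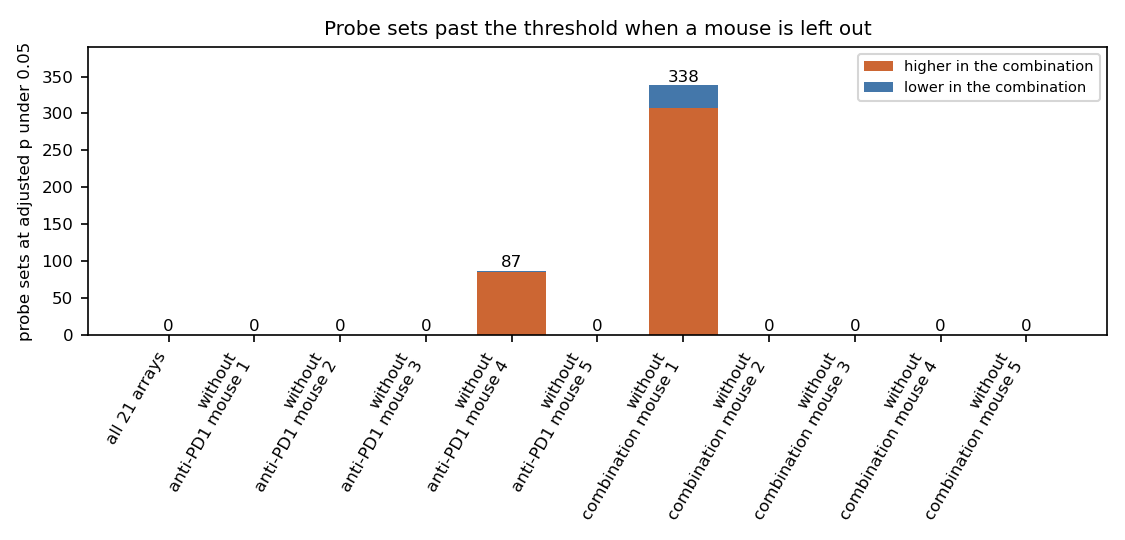
Number of probe sets at a Benjamini-Hochberg adjusted p under 0.05 (limma, y axis) with all 21 arrays and with each mouse of the 2 arms left out (x axis); bar parts separate the direction. The bars are at 0 except without anti-PD1 mouse 4 (87 in all) and without combination mouse 1 (338 in all).

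The 8 genes with the smallest p among those higher in the combination included Cd2, Lat and Sit1 of the T cell list. Cd2, an adhesion receptor of T cells and NK cells, read 6.39, 5.73, 5.82, 6.67 and 5.67 in anti-PD1 mice 1 to 5 and 6.70, 7.90, 7.73, 8.77 and 8.03 in combination mice 1 to 5. The arms did not overlap, though combination mouse 1 lay only just above anti-PD1 mouse 4. The difference was 1.77 ± 0.32 (SE), or 3.41-fold, with an adjusted p of 0.124 (limma), a value shared by 37 named genes.

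Rac2, a signalling protein of blood cells that serves migration and the oxidative burst, read 8.21, 6.60, 7.85, 8.59 and 7.80 with the antibody alone and 8.83, 9.83, 9.35, 10.74 and 10.37 with lenvatinib added. Again no tumour of the combination reached down into the anti-PD1 range, and the difference was 2.02 ± 0.37 (4.04-fold, limma adjusted p 0.124). Tsc22d3, a leucine zipper protein induced by glucocorticoids, read 6.93, 7.82, 6.84, 8.38 and 6.43 against 9.18, 9.74, 8.92, 9.12 and 9.65, a wider separation with a difference of 2.04 ± 0.39. Unlike Cd2 and Rac2, Tsc22d3 was not low in combination mouse 1.

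Adam8, a membrane metalloprotease of activated myeloid cells, had the largest difference of the leading genes. Its values were 6.38, 5.39, 8.05, 8.87 and 6.62 in the anti-PD1 arm, a wide range, and 9.11, 10.34, 9.60, 9.35 and 10.24 in the combination, a narrow one. The difference was 2.67 ± 0.54 (6.35-fold, limma adjusted p 0.124). Lat and Sit1, adaptors at the T cell receptor, differed by 1.76 ± 0.34 and 2.02 ± 0.40, and Cd7, a surface protein of T and NK cells, by 1.93 ± 0.38. AB124611 completed the 8 with 1.99 ± 0.38. The arms did not overlap for Lat and Cd7, and overlapped for Sit1 and AB124611 through combination mouse 1 alone.

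The 8 leading genes on the lower side included no member of the immune cell lists. Reep6, a protein that shapes the endoplasmic reticulum, read 6.37, 8.25, 6.46, 6.86 and 6.30 with the antibody alone and 4.68, 5.15, 5.74, 5.19 and 4.13 in the combination. No values were shared between the arms, and anti-PD1 mouse 2 stood far above its arm. The difference was -1.87 ± 0.39, a level 3.65-fold lower (limma adjusted p 0.124). Slc44a3, a choline transporter-like protein, read 7.08, 8.17, 7.80, 7.64 and 6.98 against 6.77, 5.71, 6.90, 5.61 and 4.80, also without overlap, and differed by -1.57 ± 0.34.

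Afdn, the adaptor that ties nectins to actin at adherens junctions, read 6.68, 7.57, 6.40, 6.87 and 6.68 and 6.19, 5.95, 6.01, 5.75 and 5.40 in the same order. Plekha6, a pleckstrin homology domain protein, read 6.08, 6.21, 6.26, 5.70 and 6.57 and 5.49, 4.92, 4.88, 4.92 and 4.93. Neither gene overlapped between the arms, and their differences were -0.98 ± 0.22 and -1.13 ± 0.25 (limma adjusted p 0.124 for both). Arhgap32 differed by -1.26 ± 0.29, and Fgf11, an FGF homologue that stays inside the cell, by -0.87 ± 0.20. Mcam, an adhesion molecule of vessel walls, differed by -1.50 ± 0.36 and Rbpms2, an RNA-binding protein of smooth muscle, by -1.16 ± 0.28, and these 4 overlapped by 1 or 2 tumours of the combination.

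**Figure D2:**
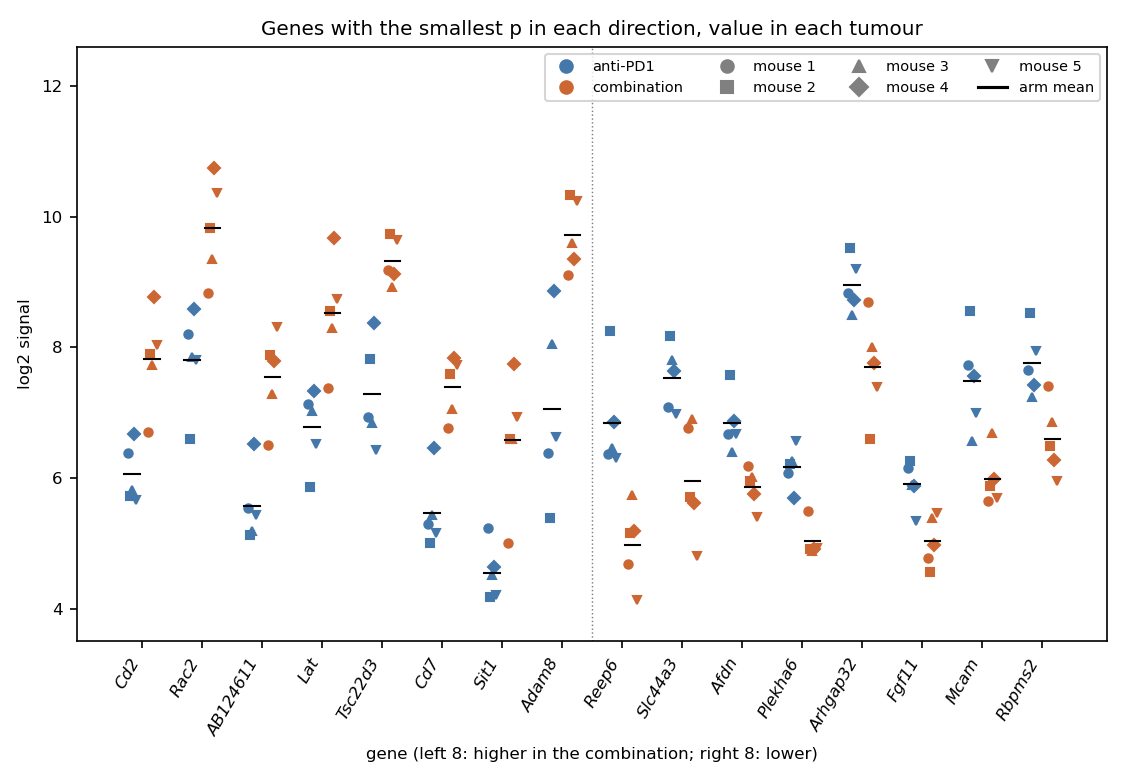
Log2 signal (y axis) of the 8 genes with the smallest p in each direction (x axis) in every tumour; colour gives the arm, the symbol the mouse, and black lines the arm means. Cd2 reached at most 6.67 with the antibody alone and at least 6.70 in the combination, and combination mouse 1 (circle) sits lowest of its arm for Cd2, Rac2 and Lat.

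Irs1, an adaptor of insulin and IGF receptors that was chosen after its values were seen, had the joint widest empty gap between the arms, 0.56, as did Reep6. Irs1 read 8.34, 9.53, 8.74, 8.40 and 9.22 in anti-PD1 tumours and 7.32, 6.57, 7.78, 6.95 and 5.59 in combination tumours. Its level was 4.02-fold lower, a difference of -2.01 ± 0.50 (limma adjusted p 0.143). The empty gap was 0.54 for Tsc22d3, 0.53 for Cd5 and 0.48 for Cd180, a Toll-like receptor relative of B cells and macrophages that lay 4.68-fold above (2.23 ± 0.54, limma adjusted p 0.14).

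Genes of the T cell receptor complex and the T cell lineage had the highest median of the 43 lists with all arrays. All 17 measured members lay above 0, with a median of 1.51 (2.84-fold) against -0.01 over all probe sets. None passed the adjusted threshold, 14 of 17 had an unadjusted p under 0.05, and the arms did not overlap in 4. Over all probe sets these shares were 7.64% and 0.928%, which also serve as the reference for such counts in the other lists. The score of a list is the mean of its members, each centred over the 21 tumours, and for these genes it was -0.35, -1.46, -0.58, -0.13 and -0.61 in anti-PD1 mice 1 to 5 and -0.41, 0.80, 0.61, 1.87 and 1.02 in combination mice 1 to 5. So 4 of 5 combination tumours lay above the whole anti-PD1 arm, and combination mouse 1 lay within it.

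The invariant CD3 chains and the zeta chain (Cd247) carry the signal of the T cell receptor. Cd3e read 6.04, 5.25, 6.59, 7.43 and 6.78 without lenvatinib and 6.87, 8.34, 8.25, 9.62 and 8.77 with it, a difference of 1.95 ± 0.51 (3.86-fold, limma adjusted p 0.157). Only combination mouse 1 fell inside the anti-PD1 range. Cd3d and Cd3g differed by 2.37 ± 0.58 and 2.23 ± 0.56. Cd247 read 6.17, 5.53, 5.94, 6.11 and 5.70 against 6.29, 6.83, 6.84, 7.88 and 7.42, without overlap, and differed by 1.16 ± 0.25. Zap70, the kinase recruited to these chains, differed by 1.51 ± 0.39 (limma adjusted p 0.155), and Cd5, a coreceptor that tunes receptor signalling, read 5.62, 5.40, 5.58, 6.16 and 5.98 against 6.68, 6.80, 6.79, 8.46 and 7.37 without overlap, a difference of 1.47 ± 0.35. Ubash3a, a negative regulator of receptor signalling, and Skap1, an adaptor, were the members nearest 0 (0.17 and 0.35).

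When combination mouse 1 was left out, 12 of 17 members passed an adjusted p under 0.05 (limma): Cd2, Cd247, Cd28, Cd3d, Cd3e, Cd3g, Cd5, Lat, Sit1, Themis, Trat1 and Zap70. In that fit 1.39% of all probe sets were higher past this threshold. Combination mouse 1 had the lowest score of its arm for this list, so leaving it out favours such calls. The same holds for the counts given without this mouse for the cytotoxic, costimulatory and macrophage lists. The same 12 genes passed with array weights, where 1.68% of all probe sets were higher. Without anti-PD1 mouse 4, 4 members passed (Cd2, Cd28, Lat and Sit1), against 0.383% of all probe sets. Leaving out any other single mouse of the 2 arms gave no call. The list median ran from 1.26 without combination mouse 4 to 1.87 without combination mouse 1.

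As members of this list lay above 0 together, their start regions were searched for the core bound by ETS factors, GGAAGT, the core bound by RUNX factors, TGTGGT, and the Sp1 box, GGGCGG, on both strands of the 250 bases before each start. RefSeq windows (GRCm38.p6) were matched for 13 of the 17 genes, which gave 19 windows. The ETS core was in 7 of 19 windows (36.8%) against 19.7% of all 32851 windows of this length. The RUNX core was in 2 of 19 (10.5%) against 14.0%, and the Sp1 box in 5 of 19 (26.3%) against 32.7%. The cytotoxic (12 windows), hepatocyte (24) and endothelial (10) lists were searched too. The ETS core was in 41.7%, 12.5% and 20% of their windows, so its higher share was not particular to the T cell list. The RUNX core was in 50%, 16.7% and 0%, and the Sp1 box in 16.7%, 20.8% and 20%. A match is a description of letters and not a binding site. The 4 windows printed were chosen for holding 1 ETS core each, shown in capitals (ACTTCC where it lies on the other strand), and run 5′ to 3′ on the strand of the gene. Cd3e lies at chr9:45009612-45009861 (minus strand), Cd3d at chr9:44981536-44981785 (plus strand), Cd247 at chr1:165788431-165788680 (plus strand) and Cd5 at chr19:10738975-10739224 (minus strand).
Cd3e: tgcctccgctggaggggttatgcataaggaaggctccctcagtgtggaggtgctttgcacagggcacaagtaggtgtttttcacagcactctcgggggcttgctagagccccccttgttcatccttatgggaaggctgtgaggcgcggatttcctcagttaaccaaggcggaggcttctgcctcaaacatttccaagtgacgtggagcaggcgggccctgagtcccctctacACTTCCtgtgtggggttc
Cd3d: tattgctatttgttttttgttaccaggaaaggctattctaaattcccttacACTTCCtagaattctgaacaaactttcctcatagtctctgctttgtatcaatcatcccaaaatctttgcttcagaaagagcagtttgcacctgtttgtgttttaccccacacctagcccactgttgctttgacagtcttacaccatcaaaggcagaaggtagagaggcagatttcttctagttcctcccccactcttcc
Cd247: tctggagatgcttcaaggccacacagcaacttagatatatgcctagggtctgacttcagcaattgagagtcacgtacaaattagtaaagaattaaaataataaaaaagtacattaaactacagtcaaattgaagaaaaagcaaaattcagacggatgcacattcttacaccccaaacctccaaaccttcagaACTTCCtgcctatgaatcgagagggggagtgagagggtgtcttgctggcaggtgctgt
Cd5: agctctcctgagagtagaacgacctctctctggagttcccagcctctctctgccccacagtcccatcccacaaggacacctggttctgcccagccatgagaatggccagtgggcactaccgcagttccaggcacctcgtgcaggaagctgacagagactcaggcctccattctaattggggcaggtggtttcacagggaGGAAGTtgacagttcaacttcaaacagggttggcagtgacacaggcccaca

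Genes of cytotoxic lymphocytes showed the same split of the combination tumours. All 18 measured members lay above 0 (median 1.28, 2.42-fold). An unadjusted p under 0.05 was reached by 13, against 7.64% of all probe sets. In 1, Ctsw, the arms did not overlap, against 0.928% of all probe sets. Scores were -0.52, -1.58, -0.35, 0.19 and -0.87 with the antibody alone and -0.45, 1.12, 0.71, 0.70 and 1.01 in the combination, so combination mouse 1 again lay inside the anti-PD1 range and the other 4 above it. Cd8b1, the beta chain of the CD8 coreceptor, read 6.77, 4.92, 7.78, 8.75 and 7.48 against 8.02, 10.04, 9.64, 10.51 and 9.91. Its difference was 2.48 ± 0.54 (5.59-fold, limma adjusted p 0.124), and that of Cd8a, the alpha chain, was 1.72 ± 0.53 (limma adjusted p 0.24). Cst7, a protease inhibitor of cytotoxic granules, differed by 1.77 ± 0.42 and Nkg7, a granule membrane protein, by 1.77 ± 0.46.

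The effector molecules were less uniform. Gzmb, the granzyme that cuts caspases in target cells, read 6.40, 3.94, 7.12, 7.31 and 6.03 against 7.71, 8.80, 7.87, 6.73 and 7.90, a difference of 1.64 ± 0.59 (limma adjusted p 0.359), or 1.09 without anti-PD1 mouse 2. Combination mouse 1 was not low for this gene, and combination mouse 4 was. Prf1, perforin, differed by 0.66 ± 0.39 and Ifng, interferon gamma, by 0.64 ± 0.41, both with overlap (limma adjusted p 0.83 and 0.86). Ifng averaged 4.07 in anti-PD1 tumours, at the level of the negative-control median (4.08), and 4.71 in the combination. Without combination mouse 1, 8 of the 18 members passed an adjusted p under 0.05 (limma), among them Cd8a, Cd8b1, Cst7 and Nkg7, against 1.39% of all probe sets higher in that fit.

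For NK cell genes the median was 0.62 with 9 of 10 above 0. Cd7 led, and Klre1, a lectin-like NK receptor, differed by 1.01 ± 0.34 (limma adjusted p 0.304). In the CD4 and regulatory T cell list 11 of 13 members lay above 0 (median 0.90). Tnfrsf4 (OX40) and Tnfrsf18 (GITR), TNF receptors of activated and regulatory T cells, differed by 1.45 ± 0.41 and 0.87 ± 0.25. Tnfrsf18 read 6.58, 6.38, 7.01, 6.91 and 6.87 against 7.13, 7.64, 7.37, 7.89 and 8.09, without overlap. Cd4 itself differed by 0.97 ± 0.33 (limma adjusted p 0.304).

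Receptors that restrain T cells, and the PD-1 ligands, had a median of 0.87, with 12 of 14 above 0 and 6 at an unadjusted p under 0.05. Pdcd1, which encodes PD-1, the target of the antibody in both arms, read 5.23, 3.63, 5.59, 6.31 and 5.56 with the antibody alone and 5.04, 7.29, 6.90, 6.37 and 7.59 in the combination. The upper 4 combination tumours stood above the anti-PD1 arm and combination mouse 1 stood inside it, with a difference of 1.37 ± 0.53 (limma adjusted p 0.422). Cd274, which encodes PD-L1, read 8.20, 6.62, 8.86, 9.13 and 8.58 against 9.05, 9.54, 9.27, 8.96 and 9.34. The anti-PD1 values were spread by anti-PD1 mouse 2, the combination values were close together, and the difference was 0.96 ± 0.41 (limma adjusted p 0.541), or 0.54 without anti-PD1 mouse 2. Cd96, a receptor of the TIGIT family, differed by 1.94 ± 0.44 and Ctla4, which competes with CD28 for B7 ligands, by 1.38 ± 0.52. Lag3 and Havcr2 (TIM-3), checkpoint receptors of exhausted T cells, differed by 0.64 ± 0.45 and 0.82 ± 0.51, with overlap. Havcr2 averaged 3.77 in anti-PD1 tumours, below the negative-control median (4.08), and 4.59 in the combination.

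Costimulatory receptors and ligands had a median of 0.96, with 12 of 13 above 0. The B7 ligands of antigen-presenting cells, Cd86 and Cd80, differed by 1.58 ± 0.39 and 1.30 ± 0.34 (limma adjusted p 0.14 and 0.155). Cd86 read 5.63, 5.65, 6.66, 7.71 and 6.62 against 7.01, 8.0, 8.03, 8.78 and 8.39, and only anti-PD1 mouse 4 reached the range of the combination. Icos, an inducible receptor of activated T cells, differed by 2.00 ± 0.59. Without combination mouse 1, 6 of 13 passed an adjusted p under 0.05 (limma): Cd226, Cd28, Cd80, Cd86, Icos and Tnfrsf4. The share over all probe sets in that fit was 1.39%.

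**Figure D3:**
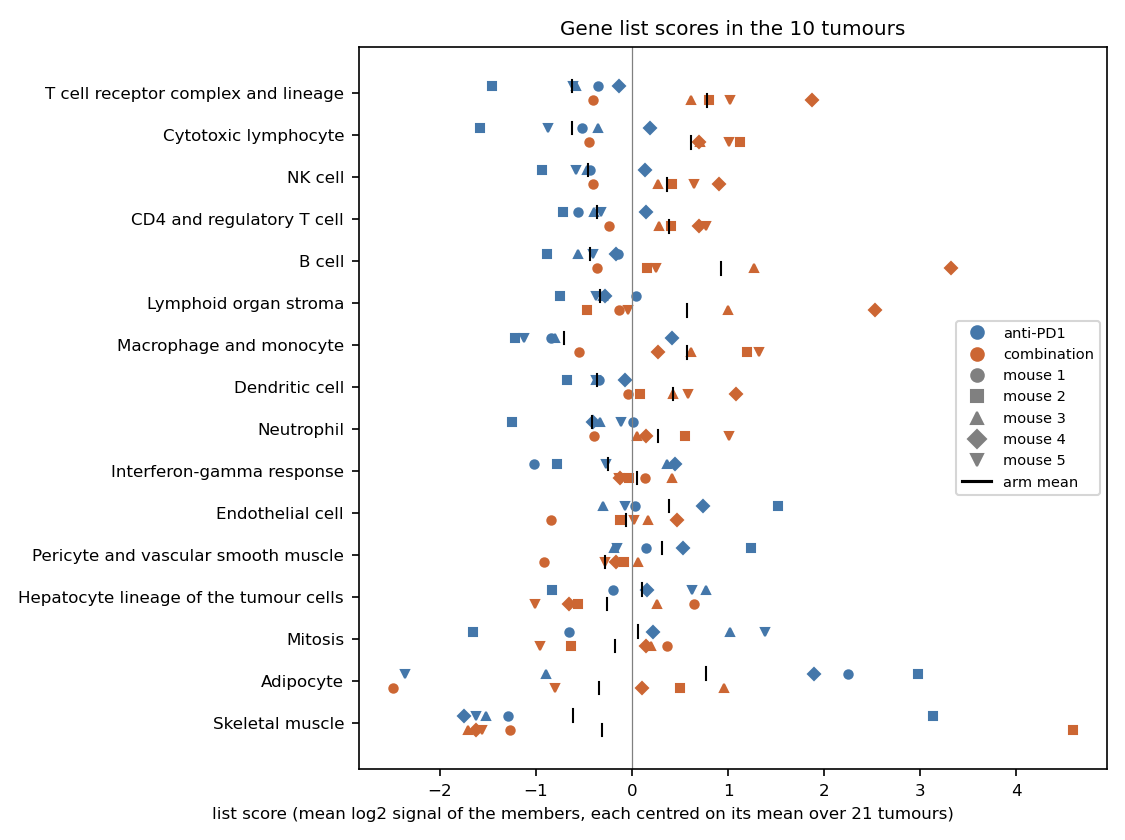
Score of 16 gene lists (rows) in each of the 10 tumours (x axis, mean log2 signal of the list's members after each was centred over the 21 tumours); colour gives the arm, the symbol the mouse and black ticks the arm means. In the T cell and cytotoxic rows 4 of 5 combination tumours lie above every anti-PD1 tumour, the B cell row is stretched by combination mouse 4 (3.32), and the muscle row by mouse 2 of each arm (3.13 and 4.59).

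B cell genes had a median of 1.47, with all 14 above 0 and 11 at an unadjusted p under 0.05, against 7.64% of all probe sets. Their values were uneven among mice. Scores were -0.14, -0.88, -0.56, -0.17 and -0.41 in anti-PD1 tumours and -0.36, 0.16, 1.27, 3.32 and 0.25 in combination tumours. Combination mouse 4 was far above the rest, combination mouse 3 next, and combination mouse 1 inside the anti-PD1 range. The median was 0.87 without combination mouse 4 and 0.40 without combination mice 3 and 4. Cd72, a coreceptor of B cells, read 5.83, 7.06, 6.35, 6.84 and 6.99 in combination mice 1 to 5, so mice 3 and 4 were not its highest. Combination mouse 1 lay inside the anti-PD1 range, which reached 5.93. Cd72 differed by 1.35 ± 0.28 (limma adjusted p 0.124), and Blnk, an adaptor of the B cell receptor, by 1.73 ± 0.45.

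Genes of lymphoid organ stroma were high in the same 2 mice as the B cell genes. Their scores were 1.00 and 2.53 in combination mice 3 and 4 and between -0.75 and 0.04 in the other 8 tumours, and 8 of 9 members lay above 0 with a median of 0.76, or 0.34 without combination mouse 4 and 1.21 without combination mouse 2. Cxcl13, a chemokine of B cell follicles, read 5.15, 4.81, 3.80, 5.12 and 4.28 against 5.44, 4.98, 8.06, 10.09 and 4.76. Only combination mice 3 and 4 were high, and the difference was 2.03 ± 0.84 (limma adjusted p 0.501). Ccl19, which guides T cells and dendritic cells in lymph nodes, differed by 1.99 ± 0.62, and was highest in the same 2 mice. Without combination mouse 4 the values were 1.18 for Cxcl13 and 1.31 for Ccl19. The part of lymphoid organ tissue in the lymphocyte values was not tested. Without combination mice 3 and 4 the T cell median was 1.20, and no probe set passed (limma, smallest adjusted p 0.37). Plasma cell genes had a median of 0.51 (10 of 10 above 0), 0.32 without anti-PD1 mouse 2. Jchain, which joins IgA and IgM units, and Mzb1, a chaperone of antibody secretion, differed by 2.64 ± 1.06 and 2.30 ± 0.58.

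Macrophage and monocyte genes lay above 0 in all 16 measured members, with a median of 1.43 (2.70-fold). No member passed the adjusted threshold, and 14 had an unadjusted p under 0.05, against 7.64% of all probe sets. In Tyrobp the arms did not overlap, against 0.928% of all probe sets. The scores were -0.84, -1.22, -0.80, 0.42 and -1.12 with the antibody alone and -0.55, 1.20, 0.61, 0.27 and 1.32 in the combination. Anti-PD1 mouse 4 stood well above its arm, combination mouse 1 well below its own, and 3 combination tumours lay above every anti-PD1 tumour. Tyrobp, the signalling adaptor of many myeloid and NK receptors, read 10.24, 7.91, 9.24, 10.26 and 8.82 against 10.34, 11.43, 10.95, 10.60 and 11.75. The difference was 1.72 ± 0.42 (3.29-fold, limma adjusted p 0.143). Itgam (CD11b), an integrin of myeloid cells, differed by 1.49 ± 0.41, Lyz2, lysozyme, by 1.89 ± 0.56, and Csf1r, the receptor for macrophage growth factor, by 1.08 ± 0.36. Without combination mouse 1, 6 of 16 passed an adjusted p under 0.05 (limma; C1qb, C1qc, Itgam, Lyz2, Ms4a7 and Tyrobp), where 1.39% of all probe sets did so on the higher side.

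Genes tied to suppressive macrophage states lay above 0 in 13 of 13 (median 1.04), with 7 at an unadjusted p under 0.05. Trem2, a lipid-sensing receptor of tumour macrophages, read 7.23, 5.5, 6.91, 8.19 and 5.69 against 6.93, 10.11, 8.93, 8.50 and 10.42. Only combination mouse 1 lay inside the anti-PD1 range, and the difference was 2.27 ± 0.61 (limma adjusted p 0.168). Arg1, arginase, read 6.94, 4.18, 9.94, 10.05 and 8.74 against 9.02, 11.26, 10.28, 9.81 and 10.40, with anti-PD1 values spread over a far wider range than combination values, and differed by 2.19 ± 0.92 (limma adjusted p 0.525), or 1.24 without anti-PD1 mouse 2. Chil3, a chitinase-like protein of alternatively activated macrophages, had the largest difference of these genes, 3.65 ± 1.24, with anti-PD1 mouse 4 high (10.07) and combination mouse 1 low (5.44). Mrc1, the mannose receptor, differed by 1.04 ± 0.63 (0.55 without anti-PD1 mouse 1), with overlap, and Fabp5, a fatty acid carrier, by 0.72 ± 0.23, without.

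Dendritic cell genes were the only list of the 43 whose scores did not overlap upward between the arms, at -0.34, -0.68, -0.37, -0.07 and -0.37 and -0.04, 0.08, 0.43, 1.08 and 0.58. All 14 lay above 0 (median 0.92, or 0.59 without combination mouse 4). An unadjusted p under 0.05 was reached by 9, against 7.64% of all probe sets. Cd83, a marker of mature dendritic cells, read 4.23, 5.12, 5.49, 5.77 and 5.73 against 5.93, 6.50, 6.58, 6.60 and 6.78, without overlap. It differed by 1.21 ± 0.27 (2.31-fold, limma adjusted p 0.124). Irf8, a transcription factor of cross-presenting dendritic cells, read 6.48, 5.80, 7.47, 7.52 and 7.28 and 8.07, 7.80, 8.02, 8.0 and 8.06, with almost equal values in the combination. Batf3, its partner, differed by 0.95 ± 0.26, and Itgax (CD11c) by 2.15 ± 0.62.

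Genes of MHC class II presentation lay above 0 in 10 of 11 (median 1.05). An unadjusted p under 0.05 was reached by 9, against 7.64% of all probe sets. H2-Aa, a class II alpha chain, read 10.24, 9.25, 10.29, 10.76 and 9.83 against 10.31, 11.26, 10.99, 11.18 and 11.55, with combination mouse 1 inside the anti-PD1 range, and differed by 0.98 ± 0.27 (limma adjusted p 0.177). H2-DMa, which loads peptides, differed by 1.05 ± 0.34. MHC class I genes lay above 0 in 12 of 12 but closer to it, with a median of 0.36 and 0 at an unadjusted p under 0.05, of which Psmb8 and Psmb10, subunits of the immunoproteasome, differed by 0.53 ± 0.26 and 0.37 ± 0.23.

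Genes of the interferon gamma response, a list that also holds the receptor chains, had a median of 0.43. Of 16 members 14 lay above 0, and the lowest stood at -0.94. The median was 0.23 without anti-PD1 mouse 1 and 0.18 without anti-PD1 mouse 2. The receptor chains had the smallest p of the list: Ifngr1 differed by 0.52 ± 0.18, without overlap, and Ifngr2 by 0.62 ± 0.19 (limma adjusted p 0.321 and 0.218). Cxcl9, a chemokine that interferon gamma induces and that attracts T cells, read 9.65, 7.11, 9.80, 9.84 and 9.10 against 10.37, 9.54, 9.96, 9.20 and 9.51. The arms overlapped widely, anti-PD1 mouse 2 was low, and the difference was 0.62 ± 0.50 (limma adjusted p 0.957), or 0.12 without anti-PD1 mouse 2. Genes induced by type I interferon were split 8 above and 9 below 0, with a median of -0.03 and 0 at an unadjusted p under 0.05. Oas2 and Ifit3, antiviral effectors, stood at -0.39 ± 0.23 and -0.31 ± 0.20.

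Chemokines that attract lymphocytes, with their receptors, lay above 0 in 16 of 16 (median 0.97) and 11 had an unadjusted p under 0.05. Cxcr6, a receptor of tissue-resident T cells, read 4.36, 4.63, 5.07, 6.27 and 5.07 against 4.86, 7.09, 6.53, 6.51 and 7.70, and differed by 1.46 ± 0.44 (limma adjusted p 0.23). Combination mouse 1 was again inside the anti-PD1 range and the other 4 were above it. Neutrophil genes had a median of 0.37 (12 of 13 above 0), and the 1 member below 0 stood at -1.41. Clec4d, a lectin receptor of neutrophils and macrophages, led the list. Clec4d read 6.23, 3.45, 5.90, 6.86 and 5.77 against 7.05, 9.30, 7.58, 8.18 and 10.24, without overlap, a difference of 2.83 ± 0.65 (7.10-fold, limma adjusted p 0.135). Retnlg, resistin-like gamma of neutrophils, differed by 1.64 ± 0.47. The neutrophil median was 0.25 without combination mouse 5, 0.69 without anti-PD1 mouse 1, 0.61 without combination mouse 1 and 0.93 without the 6 bright arrays.

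Among inflammatory cytokines and enzymes 11 of 18 lay above 0 (median 0.40, 0.20 without anti-PD1 mouse 2). Tnf read 4.17, 4.17, 4.64, 4.99 and 4.68 with the antibody alone and 5.39, 5.49, 5.05, 6.26 and 6.06 in the combination, without overlap, a difference of 1.12 ± 0.31 (limma adjusted p 0.174). Nos2, the inducible nitric oxide synthase, differed by 2.45 ± 0.78 (5.48-fold), and only anti-PD1 mouse 4 reached the combination range. Mast cell genes had a median of 0.15 (0.08 without combination mouse 5, 0.30 without anti-PD1 mouse 1), with Tpsb2 and Cma1, mast cell proteases, at 0.55 ± 0.47 and 0.43 ± 0.38.

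The kinases that lenvatinib inhibits, and their ligands, mostly lay a little below 0. Of 10 measured receptors 2 were above and 8 below (median -0.37), and 0 had an unadjusted p under 0.05. Kdr, VEGF receptor 2 of endothelium, read 6.20, 8.91, 5.59, 7.68 and 6.52 in the anti-PD1 arm and 4.66, 5.91, 6.79, 7.85 and 5.89 in the combination. The arms overlapped in 4 of 5 combination tumours, and the difference was -0.76 ± 0.64 (95% interval -2.10 to 0.58, limma adjusted p 0.966). With 1 mouse left out at a time it ran from -1.17 (without combination mouse 4) to -0.28 (without anti-PD1 mouse 2). Flt1 and Flt4, the other VEGF receptors, stood at 0.11 ± 0.42 and -0.18 ± 0.31. Among the FGF receptors, Fgfr1 stood at -0.47 ± 0.36, Fgfr2 at -1.10 ± 0.58, Fgfr3 at -0.38 ± 0.19 and Fgfr4 at -0.31 ± 0.68. Fgfr2 was high in anti-PD1 mice 2 and 4 (8.78 and 8.03) and between 4.86 and 5.74 in the other 8 tumours. Without anti-PD1 mouse 2, Fgfr2 stood at -0.55 and Fgfr1 at -0.18. Kit stood at -0.51 ± 0.85 and Ret at 0.04 ± 0.16, and the list also holds Pdgfrb, a PDGF receptor of pericytes. Pdgfra, the PDGF receptor alpha, was not matched to a probe set and is not analysed here. The signs of Flt1, Flt4, Fgfr4, Kit and Ret turned when single mice were left out.

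Ligands of these receptors were 4 above and 12 below 0 (median -0.22). Vegfa, the ligand of Flt1 and Kdr, stood at -0.44 ± 0.34, with overlap (limma adjusted p 0.943), Kitl, the ligand of KIT, at -1.0 ± 0.55 and Fgf1 at -0.55 ± 0.33. None of the 16 had an unadjusted p under 0.05.

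Endothelial genes were 2 above and 14 below 0, with a median of -0.51 (1.42-fold lower). An unadjusted p under 0.05 was reached by 1 of 16, a share close to the 7.64% of all probe sets. Scores were 0.03, 1.52, -0.30, 0.74 and -0.07 with the antibody alone and -0.84, -0.12, 0.17, 0.47 and 0.02 in the combination. The arms overlapped, anti-PD1 mouse 2 was the highest and combination mouse 1 the lowest. Without anti-PD1 mouse 2, the tumour with high muscle and fat genes, the median was -0.21, and without combination mouse 1 it was -0.33. Nos3, the endothelial nitric oxide synthase, read 5.62, 5.87, 4.78, 5.25 and 4.82 against 4.35, 4.13, 4.71, 4.15 and 4.83, with 4 of 5 combination tumours below the anti-PD1 arm, a difference of -0.83 ± 0.24 (limma adjusted p 0.204). Erg, an endothelial transcription factor, stood at -0.68 ± 0.46, Cdh5 (VE-cadherin) at -0.61 ± 0.55 and Cldn5, a tight junction protein, at -0.99 ± 0.74, all with overlap. With 1 mouse left out, Erg ran from -1.02 (without combination mouse 4) to -0.26 (without combination mouse 1), Cldn5 from -1.35 to -0.33 without the same 2 mice, and Cdh5 from -0.88 (without anti-PD1 mouse 3) to -0.28 (without anti-PD1 mouse 2).

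Genes of pericytes and vascular smooth muscle lay below 0 in 12 of 12, with a median of -0.43 (1.35-fold lower) and 3 at an unadjusted p under 0.05. Mcam, the leading member, read 7.73, 8.56, 6.56, 7.56 and 7.0 against 5.65, 5.88, 6.69, 5.99 and 5.70, and only combination mouse 3 entered the anti-PD1 range. Cspg4, the NG2 proteoglycan of pericytes, differed by -0.75 ± 0.26 (limma adjusted p 0.335). As with endothelial genes, the score was highest in anti-PD1 mouse 2 (1.24) and lowest in combination mouse 1 (-0.92), and the median was -0.23 without the former and -0.25 without the latter. Genes of VEGF-dependent tip cells had a median of -0.09, and -0.48 without anti-PD1 mouse 1. The list mixed Cxcr4 (1.77 ± 0.41), a chemokine receptor that leukocytes also carry, with Nid2 (-0.95 ± 0.30), a basement membrane protein.

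**Figure D4:**
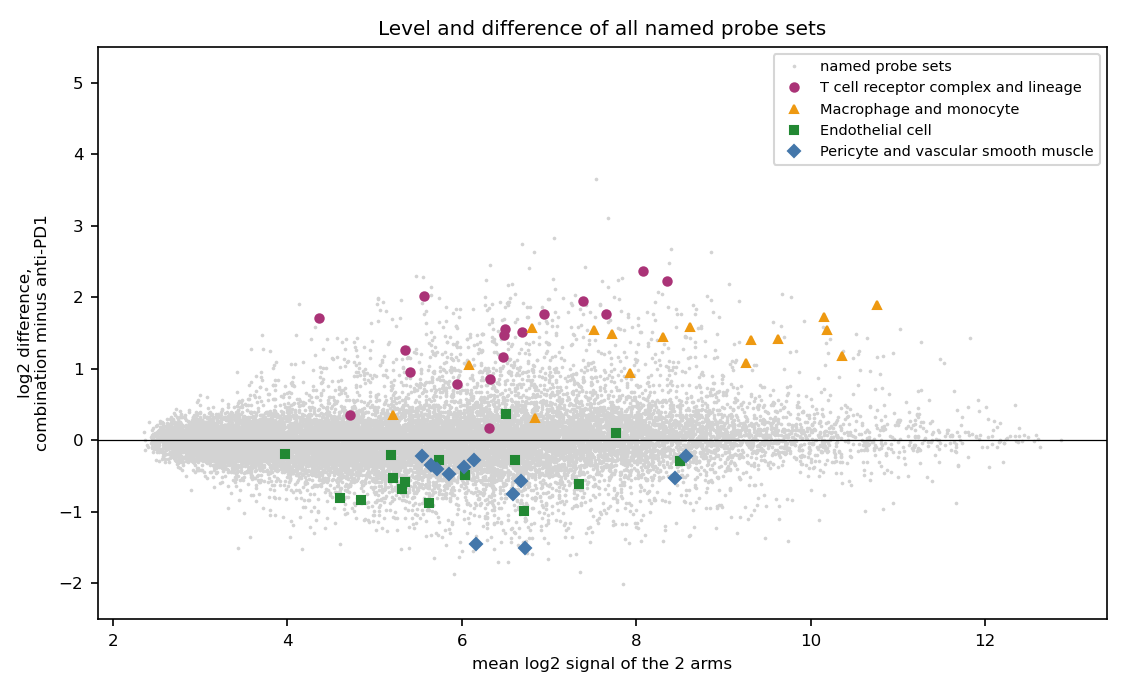
Difference between combination and anti-PD1 (y axis, log2) against the mean log2 signal of both arms (x axis) for every named probe set (grey), with the T cell, macrophage, endothelial and pericyte lists coloured. All 17 T cell and 16 macrophage members lie above 0 and all 12 pericyte members below it, while the grey points centre near 0.

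Fibroblast and matrix genes were 11 above and 6 below 0 with a median of 0.18, which was -0.05 without anti-PD1 mouse 3 and 0.45 without anti-PD1 mouse 2. Thy1, a surface protein of fibroblasts and of mouse T cells, differed by 0.75 ± 0.24, and Pdpn, podoplanin, by 1.05 ± 0.50. TGF-beta ligands, receptors and targets were centred on 0 (median 0.03), with Tgfbi, a matrix protein that macrophages also secrete, at 1.00 ± 0.41 and Ltbp1, which holds latent TGF-beta, at -0.63 ± 0.32. Lymphatic endothelial genes had a median of 0.63, but 0.15 without combination mouse 4, whose lymphoid stroma score was also the highest. Nrp2, a coreceptor for VEGF-C, differed by 0.88 ± 0.37.

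Genes of the tumour cells gave small and uneven differences. Hepatocyte lineage genes were 3 above and 19 below 0 with a median of -0.28, which was 0.00 without anti-PD1 mouse 5 and -0.67 without anti-PD1 mouse 2. The scores were -0.20, -0.83, 0.77, 0.16 and 0.63 with the antibody alone and 0.65, -0.56, 0.26, -0.65 and -1.01 in the combination, with the arms mixed. Combination mouse 1, low in immune genes, had the highest hepatocyte score of its arm. Foxa1, a pioneer factor of the liver, stood at -1.45 ± 0.46, and was high in anti-PD1 mouse 2 (7.68), without which it stood at -0.86. Its mean in the combination, 3.89, was below the negative-control median (4.08). Rbp4, a retinol carrier made by hepatocytes, stood at -0.88 ± 0.36 (limma adjusted p 0.488), or -0.51 without combination mouse 5. Wnt target genes were 1 above and 8 below 0 (median -0.40, -0.12 without anti-PD1 mouse 3 and -0.81 without anti-PD1 mouse 2). In this list Lef1, which T cells also express and which the T cell list also holds, stood at 0.79 ± 0.48, with combination mouse 4 at 8.82 and the other 4 within the anti-PD1 range, and at 0.16 without combination mouse 4. Tbx3, a liver Wnt target, stood at -0.88 ± 0.39.

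Feedback genes of MAP kinase and FGF receptor signalling had a median of -0.11 with 5 of 18 above 0, -0.47 without anti-PD1 mouse 2 and 0.06 without anti-PD1 mouse 5. Spry1, an inhibitor that receptor tyrosine kinases induce, read 6.87, 6.71, 6.84, 6.38 and 6.98 against 6.87, 5.6, 6.28, 5.92 and 5.26. Apart from combination mouse 1, the combination lay below every anti-PD1 tumour, and the difference was -0.77 ± 0.25 (limma adjusted p 0.279, and 0.0339 without combination mouse 1). Fos, an immediate early gene, stood at 0.69 ± 0.32.

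Mitosis genes were 4 above and 15 below 0 with a median of -0.29. Their scores ran from -1.65 to 1.39 in anti-PD1 tumours and from -0.96 to 0.37 in the combination, so the spread within an arm exceeded the difference, and the median was 0.05 without anti-PD1 mouse 5. Kif11, a spindle motor, and Cenpf, a kinetochore protein, stood at -0.54 ± 0.43 and -0.49 ± 0.40, or -0.20 and -0.29 without anti-PD1 mouse 5. DNA replication genes had a median of 0.07, with Rrm2, a ribonucleotide reductase subunit, at 0.64 ± 0.29 and Pcna, the sliding clamp, at 0.59 ± 0.40. Hypoxia and glycolysis genes were split 9 and 9 (median -0.02), with Bnip3, a mitophagy receptor, at -0.57 ± 0.25 and Ankrd37 at 0.80 ± 0.59. The p53 targets Ccng1 and Phlda3 stood at 0.67 ± 0.37 and -0.51 ± 0.28 (list median 0.16), and respiratory chain subunits had a median of -0.16, with Ndufa4 at -0.46 ± 0.31 and Ndufs1 at -0.59 ± 0.42.

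Of the metabolic lists, cholesterol synthesis lay lowest, with 3 above and 11 below 0 and a median of -0.55 (-0.27 without anti-PD1 mouse 2, -0.84 without the 6 bright arrays). Sc5d, a late enzyme of the pathway, read 9.68, 10.82, 9.07, 9.52 and 9.51 with the antibody alone and 9.33, 8.20, 8.67, 8.90 and 8.14 in the combination. Only combination mouse 1 entered the anti-PD1 range, and the difference was -1.07 ± 0.26 (limma adjusted p 0.143). Fdft1, squalene synthase, read 7.95, 9.29, 8.26, 8.22 and 8.07 against 7.81, 7.87, 7.64, 7.52 and 6.57, without overlap, a difference of -0.88 ± 0.28 (limma adjusted p 0.266). Hmgcs1, which feeds the mevalonate pathway, differed by -1.07 ± 0.37. In the integrated stress list (median -0.10), Asns, asparagine synthetase, did not overlap between the arms (9.29, 9.46, 9.67, 9.33 and 9.50 against 9.15, 8.69, 9.11, 8.02 and 7.62) and differed by -0.93 ± 0.28, whereas Atf3, a stress transcription factor, stood at 1.08 ± 0.41.

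Genes of neighbouring tissues varied widely between mice of the same arm. Skeletal muscle scores were 3.13 in anti-PD1 mouse 2, 4.59 in combination mouse 2 and between -1.75 and -1.27 in the other 8 tumours. The muscle median was 0.38, -0.87 without combination mouse 2 and 1.26 without anti-PD1 mouse 2, and Ryr1 and Myh1, a calcium channel and a myosin of muscle, stood at 0.44 ± 0.69 and 0.55 ± 1.39, or -0.12 and -0.62 without combination mouse 2. Without both mouse 2 tumours no probe set passed (smallest adjusted p 0.847, limma, with 753 higher and 352 lower at an unadjusted p under 0.05), and the T cell median was 1.29.

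Fat cell genes lay below 0 in 11 of 11, with a median of -1.11, which was -0.58 without anti-PD1 mouse 2, -0.64 without anti-PD1 mouse 1 and -1.84 without anti-PD1 mouse 5. Their scores were 2.25, 2.98, -0.89, 1.90 and -2.36 in anti-PD1 tumours and -2.49, 0.50, 0.96, 0.11 and -0.80 in the combination, with anti-PD1 mice 1, 2 and 4 above the whole combination arm and combination mouse 1 lowest of all. Plin1 and Cidec, lipid droplet proteins, stood at -1.84 ± 1.08 and -1.70 ± 1.05, and Adipoq, adiponectin, at -1.34 ± 1.39. The sign of Adipoq turned with array weights (0.74) and without the 6 bright arrays (0.14), and its value ran from -2.51 without anti-PD1 mouse 5 to -0.35 without combination mouse 1. Cidec stood at -1.04 without anti-PD1 mouse 2. Schwann cell genes (median -0.53, -0.25 without anti-PD1 mouse 2) included Mbp and Cdh19 at -0.79 ± 0.28 and -0.94 ± 0.41. Cdh19 averaged 3.79 in anti-PD1 and 2.85 in combination tumours, both below the negative-control median (4.08). Anti-PD1 mouse 2 alone was above that level (5.94), and without it Cdh19 stood at -0.40. Epidermal genes (median -0.33, -0.18 without anti-PD1 mouse 1) included the basal keratins Krt14 and Krt5 at -1.55 ± 0.62 and -1.08 ± 0.52, and only 3 erythroid genes were measured, of which Alas2, the first enzyme of haem synthesis in red cells, stood at -0.72 ± 0.22 and Slc4a1, the red cell anion exchanger, at 0.12 ± 0.17. The fat, epidermal and Schwann lists lay lower in the combination together with the vessel lists, and the part of neighbouring tissue in the vessel values was not tested.

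The difference that went with lenvatinib was also set against the one without the antibody, lenvatinib alone minus placebo, which shares no tumour with it. Over the 22206 probe sets the 2 differences had a Pearson r of -0.09 and a Spearman correlation of -0.11, given as a description across probe sets of the 21 arrays. Without the antibody, 0 probe sets were called in each direction (limma, smallest adjusted p 0.693), with 649 higher (2.92%) and 899 lower (4.05%) at an unadjusted p under 0.05, or 6.97% in either direction. The test of the difference between them, the interaction, called 0 probe sets in each direction (limma, smallest adjusted p 0.151, shared by 57 named genes), with 1266 higher (5.70%) and 736 lower (3.31%) at an unadjusted p under 0.05. Of the 22206 probe sets, the interaction test called 320 without combination mouse 1, 7 without anti-PD1 mouse 4, and 772 higher and 919 lower with array weights.

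T cell genes lay above 0 with the antibody (median 1.51) and below 0 without it (median -0.42), with an interaction above 0 in 17 of 17. Cd2 stood at 1.77 ± 0.32 with the antibody and -0.58 without it, an interaction of 2.35 ± 0.44 (limma adjusted p 0.151). For macrophage genes the medians were 1.43 and -0.67, and Lyz2 had an interaction of 3.32 ± 0.77 and Trem2 of 3.62 ± 0.84 (limma adjusted p 0.151 for each). The anti-PD1 arm itself scored below placebo in the T cell and macrophage lists. Mean T cell scores were 0.12 in placebo, -0.63 in anti-PD1 and 0.78 in combination tumours. Mean macrophage scores were 0.38, -0.71 and 0.57 in the same order. Lyz2 averaged 11.62 in placebo and 11.71 in combination tumours, and Trem2 8.78 and 8.98. Combination and placebo were not compared by a test. Fibroblast genes had medians of 0.18 with the antibody and -0.74 without. Interferon gamma genes lay above 0 in both settings, at 0.43 and 0.67.

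With all arrays, mitosis, hepatocyte and Wnt target lists lay below 0 with the antibody and above 0 without it. Without anti-PD1 mouse 5, the mitosis and hepatocyte medians with the antibody were 0.05 and 0.00. Mean mitosis scores were -0.45 (SD 1.10) in placebo and 0.65 (SD 0.41) in lenvatinib tumours. Mitosis genes stood at a median of -0.29 with the antibody and 1.05 without it, and the interaction was below 0 in all 19. Hepatocyte lineage genes stood at -0.28 and 0.61, and Wnt targets at -0.40 and 0.94. Plekha6 was -1.13 ± 0.25 with the antibody and 0.65 without, an interaction of -1.79 ± 0.35 (limma adjusted p 0.151). Pericyte and fat cell lists lay below 0 in both settings, at -0.43 and -0.29, and at -1.11 and -1.73. None of these genes passed the test of the interaction with all 21 arrays.

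**Figure D5:**
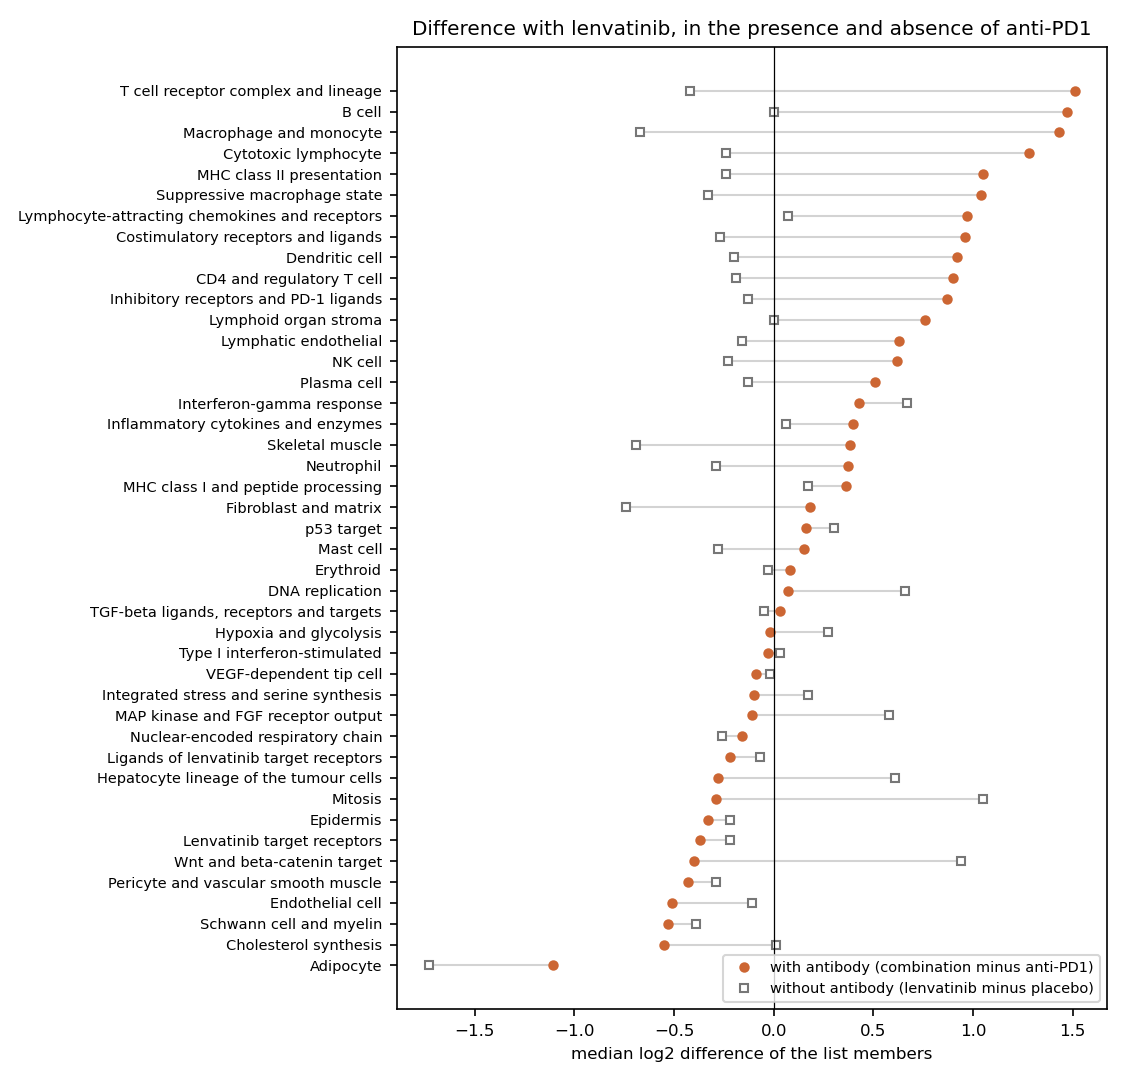
Median log2 difference (x axis) of the members of each of the 43 gene lists (rows) for combination minus anti-PD1 (filled circles) and lenvatinib minus placebo (open squares), joined by a grey line. The T cell list lies at 1.51 and -0.42, the mitosis list at -0.29 and 1.05, and the adipocyte list at -1.11 and -1.73.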

How the data were processed

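The values were deposited by the authors as log2 signals, 1 per probe set and array, and the submitters' processing notes name RMA and the oligo package. Annotation and genome build of the array: not given in the sources used here. Of 29129 rows, 6923 control rows were left out, and all 22206 others were tested. Of these, 19572 name 1 gene (19505 genes) and 2634 name none. Every value column was matched to a mouse by its label. Each array is a separate mouse, and p-values therefore reflect how mice differ. Precision is limited by there being 5 arrays in each arm.

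Linear models with 4 group means over all 21 arrays were fitted with limma 3.58.1 in R 4.3.3, with two-sided moderated tests and Benjamini-Hochberg adjustment over all 22206 probe sets. A probe set was called at an adjusted p under 0.05. For 55 genes with more than 1 probe set, the probe set with the highest mean was used. The procedure was tested on simulated data with independent noise in each probe set. Genes that move together within a tumour, as in these arrays, were not simulated.

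The comparison, the 43 gene lists (609 genes, 564 of them measured) and the rule for named genes were chosen with earlier results of these data known. By that rule, the text names the 8 genes with the smallest p in each direction and the 2 with the smallest p in each list, plus the receptors that lenvatinib inhibits, Pdcd1 and Cd274; provisional names were left out. Other genes named with values, such as Cd3e, Gzmb, Arg1, Cxcl9, Irs1 and Cd180, were chosen after their values were seen. Alternatives covered normalization, filtering, weighting, covariates, the replicate block and left-out arrays; the non-overlap counts under other settings were added after the data were seen. Promoter windows are from RefSeq (GRCm38.p6).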

Additional observations from a re-analysis of the deposited data

Results flagged for a closer look

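A value is given here where the highest or lowest tumour of an arm of 5 stood apart from the nearest other by more than Dixon's critical share of the arm's range (0.710 for 5 samples). Chance alone passes that limit in about 1 group of 20, and 25 of 274 gene groups and 6 of 86 list scores passed it. All gene values are log2 signals.

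Combination mouse 1 was lowest of its arm for Ctla4 (3.57, next 5.66), Jchain (6.13), Nos2 (6.44), Cd3g (7.72, next 9.67), Icos (5.2, next 7.35) and Chil3 (5.44, next 10.05). Its list scores for cytotoxic lymphocytes (-0.45) and for inhibitory receptors (-0.50) were also lowest, and it was highest for Plekha6 (5.49). Among the other combination tumours, mouse 4 was highest for Lef1 (8.82), mouse 5 lowest for Fdft1 (6.57), mouse 2 lowest for Irf8 (7.80) and highest for Ccng1 (9.75).

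Anti-PD1 mouse 2 was lowest of its arm for Cd3d (4.02, next 7.14), Zap70 (4.89), Cxcl9 (7.11, next 9.10), Ltb (6.24), Retnlg (4.29) and Rrm2 (3.43), and for the inflammatory score (-1.21). The same tumour was highest for Reep6 (8.25, next 6.86), Fdft1 (9.29), Myh1 (9.37) and Cdh19 (5.94). Anti-PD1 mouse 4 was highest for Cst7 (8.55), Csf1r (9.67) and the macrophage score (0.42, next -0.80). Anti-PD1 mouse 1 was highest for Thy1 (7.80) and lowest for Ccng1 (6.41). Skeletal muscle scores stood apart in mouse 2 of each arm, at 3.13 with the antibody alone and 4.59 in the combination.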

How the results depend on the processing

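The count of 0 in each direction was also obtained with the 10 arrays of the 2 arms alone, a filter at the 40th percentile, trend and robust settings, cyclic loess and median centring, with smallest limma adjusted p-values between 0.0889 and 0.46, and without the mouse 2 tumours (0.847) or combination mice 3 and 4 (0.37). Array weights gave 374 higher and 130 lower, with 772 higher and 919 lower for the interaction, the control signal as a covariate 29 and 2, and removal of the 6 bright arrays 143 and 90. Leaving out 1 mouse of the anti-PD1 or combination arm gave 0 to 308 higher and 0 to 30 lower, and 0 to 320 interaction calls. The 308 and 320 were without combination mouse 1, and 85 were higher without anti-PD1 mouse 4. Placebo and lenvatinib mice, on which the interaction also rests, were not left out singly. The cause of these shifts was not tested. Non-overlapping probe sets below numbered 54 with the filter instead of 89, but the filter tests 13324 of 22206 probe sets, and the shares were 0.405% and 0.401%.

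Whether mouse numbers pair the tumours is not settled by these values. Same-numbered tumours correlated between -0.27 and 0.35 in their deviations, over 0.1 in 3 of 5 pairs. In each arm 2 of 5 correlated best with their own number. With the mouse number as a replicate block the counts were 0 and 0 (smallest limma adjusted p 0.0907) and 0 for the interaction.

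Some gene signs turned. With 1 mouse left out at a time, Ryr1 ran from -0.12 to 0.72 and Myh1 from -0.62 to 1.56 (both lowest without combination mouse 2), Slc4a1 from -0.01 (without combination mouse 5) to 0.19, Flt1 from -0.27 (without anti-PD1 mouse 1) to 0.32, and Flt4 from -0.34 to 0.04 (without anti-PD1 mouse 5). In the same way Fgfr4 ran from -0.87 to 0.10, above 0 without anti-PD1 mouse 5 and, at 0.07, without anti-PD1 mouse 3. Kit ran from -1.34 to 0.00 (without anti-PD1 mouse 2), and Ret from -0.04 (without anti-PD1 mouse 3) to 0.07, at 0.00 without combination mouse 1. Flt1 was -0.11 with array weights and -0.21 without bright arrays, Kit 0.08 without the mouse 2 tumours, and Adipoq 0.74 with array weights and 0.14 without bright arrays. Of the other gene values under alternatives, 2689 stayed on their side of the threshold and 163 passed it in the same direction.

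List medians moved by more than the spread between tumours in 10 refits (893 did not). Without combination mice 3 and 4 the B cell median was 0.40, the dendritic cell median 0.49 and the lymphatic median 0.02, and the last was 0.15 without combination mouse 4. Without bright arrays the neutrophil median was 0.93 and that of cholesterol synthesis -0.84. The filter gave 0.42 for mast cells and -0.30 for erythroid genes, tip cell genes were -0.48 without anti-PD1 mouse 1, and Wnt targets -1.07 with array weights.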
